A study of Mus musculus with 6 samples.

Results

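Glutathione transferases and epoxide hydrolases were examined as a set of 10 genes (Gsta3, Gsta4, Gstm1, Gstm2, Gstm5, Gsto1, Gstp1, Gstt1, Ephx1 and Ephx2), out of 28146 gene names on the array. They were taken by gene name, with every non-control probe of each gene, which gave 14 of 41174 probes. All 10 genes had at least 1 probe, 4 of them had 2, and all 14 probes were well above background on all 6 arrays. The RNA was total RNA of the esophagus of adult mice, described as esophageal epithelium, on a C57BL/6J background. There were 3 arrays with the label wild type and 3 with the label Pax9 knockout (K5Cre;Pax9 loxp/loxp, a floxed Pax9 allele recombined by a Cre driven from the keratin 5 promoter, which is active in basal cells of stratified epithelium). The labels do not say whether the wild type mice carried Cre or the floxed allele. On each array Cy5 marked the esophagus sample, and Cy3 marked a common reference, a commercial pool of RNA from 11 mouse cell lines. A value below is the log2 ratio of esophagus over reference after background correction and loess normalization, unless it is called a signal. A difference is the knockout-labelled mean minus the wild-type-labelled mean.

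Glutathione transferases join the thiol of glutathione to electrophilic compounds, which marks them for export from the cell. They fall into classes named by Greek letters (alpha, mu, pi, omega, theta). The mu-class genes sit as a cluster on chromosome 3, while the alpha-class members Gsta3 and Gsta4 lie on chromosomes 1 and 9. Epoxide hydrolases add water to epoxides. Ephx1, the microsomal enzyme, is known for epoxides made from foreign compounds by cytochromes P450, and Ephx2, the soluble enzyme, for epoxides of fatty acids. The esophageal lining meets such compounds in swallowed material.

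The probes carry the sequences that the values rest on. Close relatives within a class can share sequence, so each member probe was set against 37 or 38 probes of other transferase or epoxide hydrolase genes. These did not take in every such probe on the array. The longest run of identical bases shared with any of them was 7 to 10 bases out of 60. The longest, 10 bases, joined the probes of Gstm5 and Gstm6, mu-class genes of the same cluster whose differences had opposite signs. They are shown here with that run in capitals and are followed by the probe of Gsta4, which was spotted 10 times on each array.
Gstm5: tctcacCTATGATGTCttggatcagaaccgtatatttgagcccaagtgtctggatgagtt
Gstm6: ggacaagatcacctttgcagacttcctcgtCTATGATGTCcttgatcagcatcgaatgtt
Gsta4: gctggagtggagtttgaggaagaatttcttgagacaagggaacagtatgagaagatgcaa
Lined up on the shared run, the Gstm5 and Gstm6 probes overlapped over 36 bases and differed at 9 of them. Probes were compared with probes only, and these may lie on different parts of their transcripts. A short shared run therefore does not show that a probe is specific. Whether any of these probes also binds the transcript of a relative was not tested.

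The question the arrays address is which genes differ in the esophageal lining after Pax9, a paired-box transcription factor, is deleted from it. The Pax9 probe itself (chromosome 12, 57811169 to 57811228, mm9) was not lower on the knockout-labelled arrays, with a mean of 6.77 ± 0.05 (SD, n = 3) against 6.04 ± 0.30 (SD, n = 3). A probe outside the floxed part would check nothing, and the labels do not give that part, so every direction below rests on the labels. The groups were hybridised on different slides and scanned apart, which leaves genotype and slide confounded: they cannot be told apart. All 7 markers of esophageal epithelium (such as Krt5 and Krt13) were well above background on every array. So were all 6 skeletal muscle, all 4 smooth muscle, all 6 fibroblast, all 4 endothelial and all 4 immune markers. In RNA of a whole tissue, fewer cells of a type and less RNA per cell cannot be told apart. Over all 30505 tested probes, 1274 passed an adjusted p of 0.05 in limma, which is 4.18%, with 2.39% called higher with the knockout label and 1.78% called lower. With the replicate number as a block, 2254 passed (7.39%).

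Among the members, Ephx2, Gstm5 and Gsta3 fell and none rose. They gave 3 called probes of 14 (21.4%), where 4.18% of all tested probes were called in either direction and 1.78% lower. The members were chosen with earlier results of these data known, so these shares describe the set and do not test it. At an unadjusted p under 0.05, 9 member probes passed, where 23.3% of all tested probes did. Called or not, 6 of the 14 read lower, where 50.3% of all tested probes did. Of the 11 probes that did not pass, 8 read higher on the knockout-labelled arrays. All 8 belong to glutathione transferases, and they kept that sign in each of the 16 other settings run. The members' median difference was 0.48, against -0.0027 over all tested probes, so the called probes lay on the opposite side from the median of the set. With median centring in place of loess the members' median was 0.79 and that of all probes 0.07. The higher transferases then read further up, with Gsta4 at 0.93, Gsto1 at 1.07, and Gstm1 and Gstp1 at 1.29 and 1.38 on their first probes, none past the threshold. The arrays of the groups did not overlap for 8 of the 14 probes, 4 lower and 4 higher, where 30.5% of all tested probes did not overlap (14.9% lower and 15.6% higher). With Cy5 alone 6 members passed, 3 lower and 3 higher, where 27.1% of all tested probes did.

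**Figure D1:**
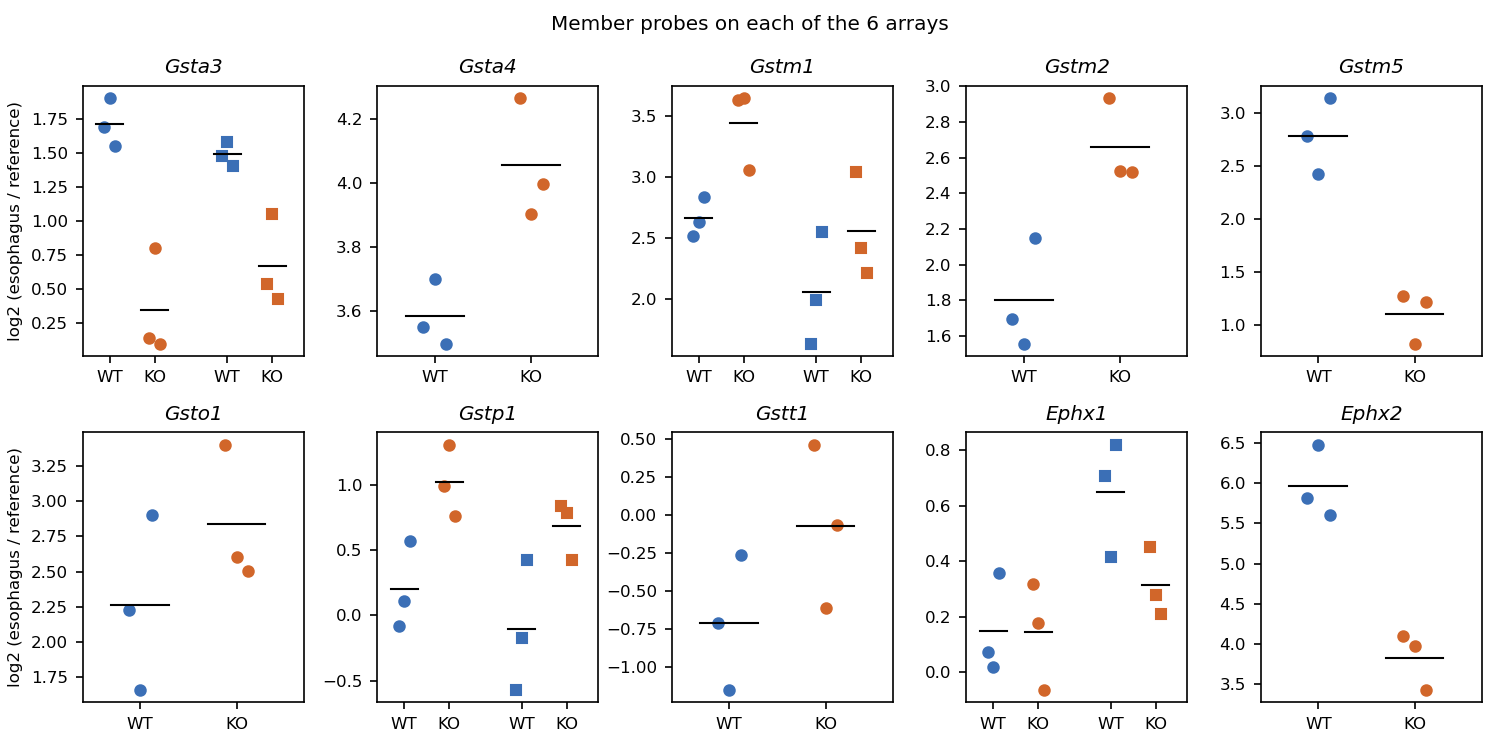
Log2 ratio of esophagus over reference RNA for every probe of the 10 genes on the 3 wild-type-labelled arrays (WT, blue) and the 3 labelled knockout (KO, orange), with the group mean as a line and a second probe of a gene as squares. The vertical scales differ between genes. Ephx2, Gstm5 and Gsta3 lie lower on all 3 knockout-labelled arrays, and Gsta4, Gstm2 and the first probes of Gstm1 and Gstp1 lie higher.

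**Figure D2:**
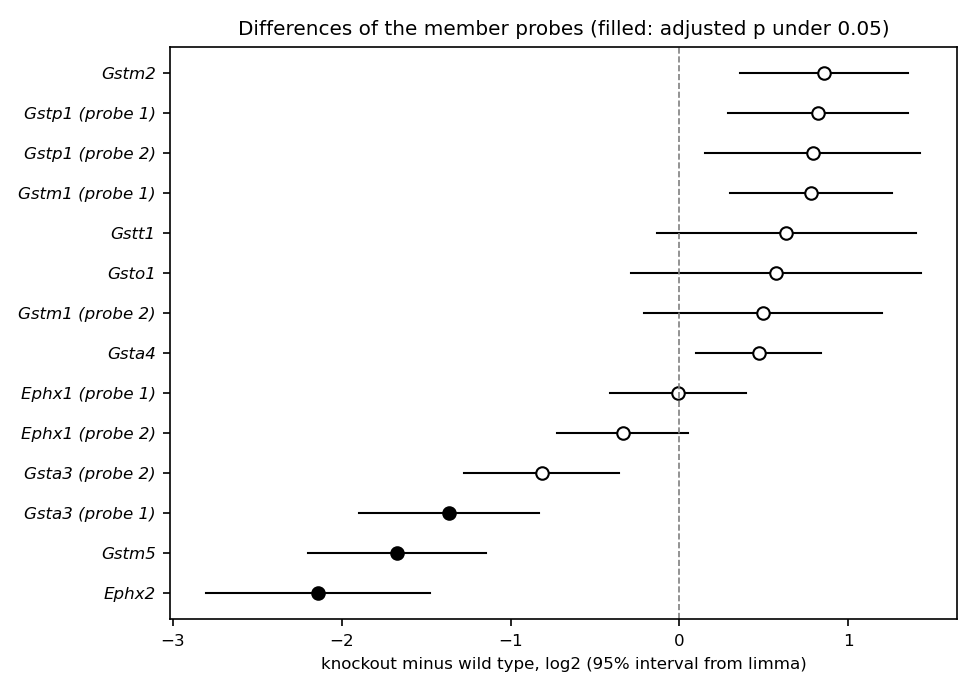
Difference of the knockout-labelled arrays minus the wild-type-labelled arrays (log2) for the 14 member probes, with the 95% interval from limma (n = 3 arrays a group). Filled points passed an adjusted p of 0.05. They are Ephx2, Gstm5 and probe 1 of Gsta3, all lower.

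Ephx2, the soluble epoxide hydrolase, gave the largest difference among the members. The 60 bases of its probe are at chromosome 14, 66703319 to 66703378, on the minus strand of mm9. Its log2 ratios were 5.81, 6.48 and 5.60 on the wild-type-labelled arrays, against 4.09, 3.96 and 3.42 on the knockout-labelled arrays. The groups are clearly apart, and replicate 3 labelled knockout is the lowest array. The difference was -2.14 (SE 0.28, adjusted p = 0.017 in limma), a 4.40-fold lower ratio, with a 95% interval of -2.80 to -1.47. In Cy5, background-subtracted signals reached 5583, 10650 and 16480 for wild type and 4159, 4483 and 2924 for knockout labels, so the groups did not overlap in the sample channel alone either. The Cy3 reference, which should carry the same RNA on every array, differed by 0.30 in the opposite direction (adjusted p = 0.023 in limma on Cy3 alone). The call was lost without wild type replicate 1 (adjusted p = 0.066) and without knockout replicate 3 (adjusted p = 0.077), while the difference over single leave-outs stayed between -2.32 and -1.88.

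Ephx1, the microsomal epoxide hydrolase, did not pass the test on either probe. Probe 1 (chromosome 1, 182920589 to 182920648, mm9) differed by -0.01 (SE 0.17, adjusted p = 0.99), with a 95% interval of -0.41 to 0.40. Probe 2 (182922082 to 182922141) differed by -0.34 (SE 0.16, adjusted p = 0.27), with an interval of -0.72 to 0.05. The groups overlapped on both, with ratios of 0.02 to 0.36 against -0.07 to 0.32 on probe 1 and of 0.42 to 0.82 against 0.21 to 0.45 on probe 2. These intervals do not reach a difference of the size seen for Ephx2. The sign of probe 1 turned in 5 settings and that of probe 2 in 2.

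Gsta3, an alpha-class transferase known in mouse liver for conjugating the epoxide of aflatoxin, had probes that read lower by different amounts. On probe 1 (chromosome 1, 21255189 to 21255248, mm9) the ratios were 1.69, 1.90 and 1.55 on the wild-type-labelled arrays, against 0.14, 0.81 and 0.10 on the knockout-labelled arrays. Replicate 2 labelled knockout stood above the other two, yet below every array labelled wild type. The difference was -1.36 (SE 0.23, adjusted p = 0.027). Dropping replicate 1 or 2 of the wild type label ended the call (adjusted p of 0.10 and 0.088), and so did dropping replicate 1 or 3 of the knockout label (0.085 and 0.13). Median centring ended it too, at -1.14 (adjusted p = 0.14).

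Probe 2 of Gsta3 lies close by, at 21255092 to 21255151, and read 1.48, 1.58 and 1.41 against 0.54, 1.05 and 0.43. The order of the arrays was the same as on probe 1 and the groups did not overlap. Its difference of -0.82 (SE 0.20, adjusted p = 0.065) missed the threshold, and with a replicate block it passed (adjusted p = 0.041). Without knockout replicate 2 it also passed, at -1.0 (adjusted p = 0.037). Part of this difference stood in the reference channel, where Cy3 alone was higher by 0.41 on the knockout-labelled arrays (adjusted p = 0.0039). With Cy5 alone the difference was -0.45 (adjusted p = 0.10). The background-subtracted Cy5 signals of 1245, 1533 and 3469 against 1580, 2686 and 1733 overlapped. They were not scaled for the brightness of the arrays, whose median Cy5 signal ran from 56 to 159, so this overlap carries little. On probe 1 Cy5 alone gave -1.42 (adjusted p = 0.0064) and Cy3 alone 0.08, so the sample channel carried that difference.

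Gsta4, the alpha-class transferase known for conjugating hydroxynonenal, a product of lipid peroxidation, lay on the other side. Its probe (chromosome 9, within 78046172 to 78047344, mm9) read 3.55, 3.70 and 3.50 on the wild-type-labelled arrays, against 4.26, 3.90 and 4.0 on the knockout-labelled arrays. The groups did not overlap, but the difference of 0.47 (SE 0.16) missed the threshold (adjusted p = 0.13). With Cy5 alone it was 0.84 (adjusted p = 0.02). The repeated spots show the precision within an array, with an SD over spots of 0.04 to 0.19. On replicate 3 labelled wild type 8 of the 10 spots were used and their SD was the highest. This spread is technical and does not gauge the spread between samples.

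The mu class held differences of opposite sign within 1 cluster on chromosome 3. Gstm5 fell. Its probe (107701101 to 107701160, mm9) read 2.78, 2.43 and 3.13 on the wild-type-labelled arrays, against 1.28, 0.83 and 1.22 on the knockout-labelled arrays. Every array labelled knockout was lower than every array labelled wild type by more than 1 log2 unit. The difference was -1.67 (SE 0.22, adjusted p = 0.018), a 3.19-fold lower ratio, and -2.17 with Cy5 alone (adjusted p = 0.0045). In Cy5 the signals were 19780, 16030 and 60760 against 9315, 7726 and 10350. The Cy3 reference alone differed by -0.26 (adjusted p = 0.033), in the same direction. Median centring in place of loess ended the call (-1.50, adjusted p = 0.14), as did leaving out wild type replicate 1 or knockout replicate 1 or 3 (adjusted p of 0.076, 0.051 and 0.084).

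Gstm2 and Gstm1 read higher without passing. Gstm2 (107784622 to 107784681) had ratios of 1.70, 1.56 and 2.15 against 2.93, 2.53 and 2.52. The groups did not overlap, and replicate 3 was the highest of the wild-type-labelled arrays. Its difference was 0.86 (SE 0.21, adjusted p = 0.068), and 1.03 (adjusted p = 0.048) without that array. Without any other single array it did not pass (adjusted p of 0.11 to 0.2). Part of the difference stood in the reference channel, where Cy3 alone differed by -0.23 (adjusted p = 0.021). Cy5 alone gave 0.675 (adjusted p = 0.053). On its probe 1 (107815180 to 107815239) Gstm1 read 2.52, 2.64 and 2.84 against 3.63, 3.64 and 3.06, and on probe 2 (107815564 to 107815623) it read 1.64, 1.99 and 2.55 against 3.04, 2.42 and 2.22. The probes differed by 0.78 (SE 0.20, adjusted p = 0.078) and 0.50 (SE 0.30, adjusted p = 0.36), and only the second had overlapping groups. With Cy5 alone the first passed at 0.61 (adjusted p = 0.038), and with Cy3 alone it differed by -0.31 (adjusted p = 0.057).

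The rest of the mu class was read beside the members. Over 7 mu-class genes with 9 tested probes, 7 probes read higher and 2 lower, with 1 called in each direction. Gstm4, at the far end of the cluster from Gstm5, rose by 0.94 (SE 0.20, adjusted p = 0.047). Its ratios were 0.61, 0.51 and 1.12 against 1.80, 1.66 and 1.61, which do not overlap. It did not pass in the deposited log ratio (0.73, adjusted p = 0.20) or with median centring (0.89, adjusted p = 0.20), and over single leave-outs its adjusted p reached 0.17. Gstm6, the gene whose probe shares the run with Gstm5, differed by 0.62 (adjusted p = 0.15) and Gstm3 by 0.71 (adjusted p = 0.17). The Gstm7 probes read 0.22 and -0.14.

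**Figure D3:**
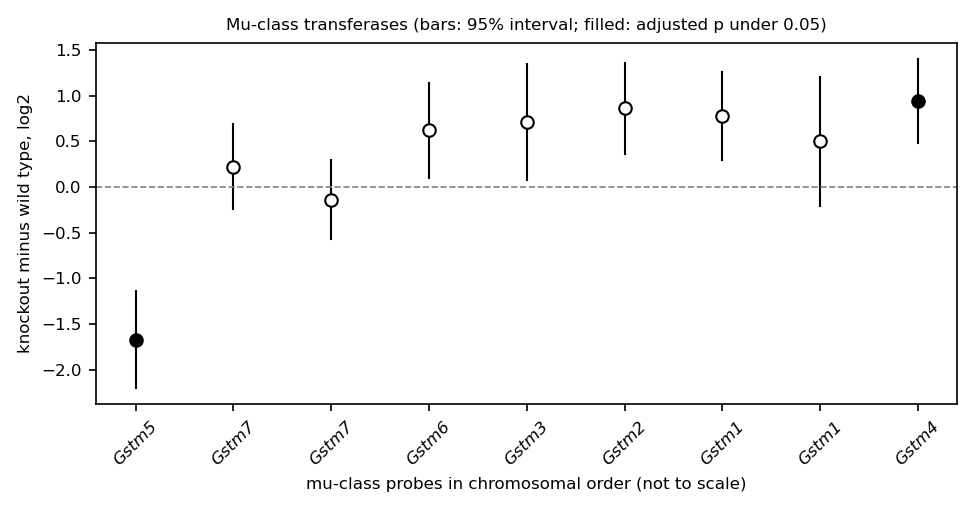
Difference of the knockout-labelled arrays minus the wild-type-labelled arrays (log2, with the 95% interval from limma) for the 9 tested probes of mu-class transferases, in the order of their positions on chromosome 3. Gstm5 at one end is lower (-1.67) and Gstm4 at the other end is higher (0.94); these 2 passed.

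Gstp1, the pi-class transferase, Gsto1, an omega-class enzyme that reduces rather than conjugates many of its substrates, and Gstt1, a theta-class enzyme, all read higher without passing. Gstp1 probe 1 (chromosome 19, 4035486 to 4035545, mm9) had ratios of -0.08, 0.11 and 0.57 against 0.99, 1.31 and 0.76 and a difference of 0.82 (SE 0.23, adjusted p = 0.089). Gstp1 probe 2 (within 4035908 to 4036723) read -0.57, -0.18 and 0.43 against 0.84, 0.78 and 0.42 and differed by 0.79 (SE 0.27, adjusted p = 0.14). The probes thus gave nearly the same difference, but the groups overlapped on probe 2. Cy3 alone differed by -0.24 on probe 1 (adjusted p = 0.056) and by 0.0046 on probe 2 (adjusted p = 0.96). Gsto1 (chromosome 19, 47939128 to 47939187) read 2.23, 1.66 and 2.90 against 3.4, 2.61 and 2.50 and differed by 0.57 (SE 0.37, adjusted p = 0.39). Its replicate 3 labelled wild type lay above 2 of the 3 knockout-labelled arrays. Gstt1 (chromosome 10, within 75249693 to 75256857) read -0.71, -1.15 and -0.26 against 0.46, -0.61 and -0.07 and differed by 0.63 (SE 0.33, adjusted p = 0.29). Its Cy5 signals were low, at 52.3 to 355.5 on the wild-type-labelled arrays, against 228.1 to 403.8 on the knockout-labelled arrays.

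Replicate 3 labelled wild type stood high among the members. It was the highest array of its group for 7 of the 8 probes that read higher on the knockout-labelled arrays, and for all 4 of those whose groups overlapped. It was also the highest for 3 of the 6 that read lower, Gstm5 and both probes of Ephx1, so for 10 of 14 in all (71.4%), where it was the highest for 35.6% of all tested probes. It also had the highest median Cy5 signal, 159, against 56.0 and 72.7 on the other arrays of its group and 97.5 to 133 on the knockout-labelled arrays. Without it the differences of Gsto1, Gstt1 and probe 2 of Gstp1 were 0.89, 0.86 and 1.06, at adjusted p of 0.17, 0.19 and 0.055. Other arrays moved these differences down. Gsto1 read 0.27 without wild type replicate 2 and 0.29 without knockout replicate 1, both at adjusted p = 0.69. Without knockout replicate 1, Gstt1 read 0.37 and probe 2 of Gstm1 0.26, and that probe read 0.29 without wild type replicate 1. The part of signal brightness in these differences was not tested.

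**Figure D4:**
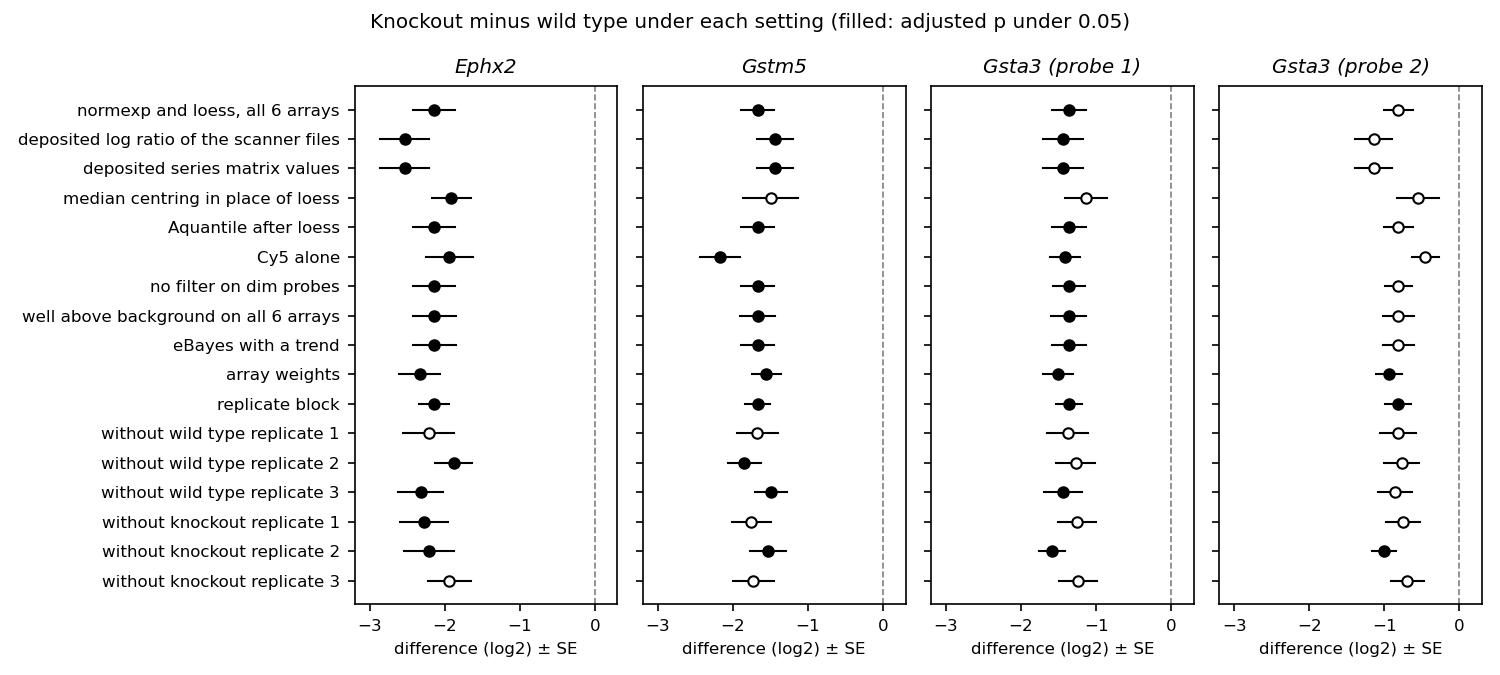
Difference of the knockout-labelled arrays minus the wild-type-labelled arrays (log2, ± SE) for the 4 probes of Ephx2, Gstm5 and Gsta3 with normexp and loess (top) and 16 alternatives; filled points passed an adjusted p of 0.05. All points lie below 0. Ephx2 passed in 14 of the 16 alternatives, Gstm5 in 12, and probes 1 and 2 of Gsta3 in 11 and 3.

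Markers of other cell types were read beside these results. All 11 tested skeletal muscle probes were higher on the knockout-labelled arrays, with a median difference of 1.28, but only 1 passed (Myh2, adjusted p = 0.04). Their summed normalized Cy5 signal was 26500 to 280000 on the wild-type-labelled arrays, against 82500 to 768000 on the knockout-labelled arrays, which overlap. Replicate 2 stood far above the others of its group on probes such as Acta1 (14450, 125800 and 15490 against 46710, 292900 and 45510). There the knockout-labelled array was the higher within each replicate number. On the called Myh2 probe replicate 2 did not stand out (363.7, 286.8 and 489.5 against 1180, 763.5 and 1016). The summed signal also overlapped for fibroblast markers (135000 to 363000 against 157000 to 457000) and for epithelial markers (903000 to 1360000 against 978000 to 1370000). None of the tested fibroblast, smooth muscle, adipocyte, endothelial, immune, liver or gastric or intestinal probes passed. Of the 3 liver markers on the array (Alb, Apoa1 and Ttr), none was well above background on all arrays. Their summed signal was 215 to 225 against 226 to 335, near the floor left by background correction, so the lack of overlap carries little. Alb on knockout replicate 1 gave 164.3, and the only tested liver probe, Apoa1, differed by 0.21 (adjusted p = 0.41). Of 5 gastric or intestinal markers, Cdx2, Gkn1 and Vil1 were not well above background on all arrays. The summed signal of that list was 1670 to 2730 against 1040 to 1200, which do not overlap. Its brightest probe, of Muc5ac, differed by -0.24 (adjusted p = 0.68), with overlapping log2 ratios but normalized Cy5 signals that did not overlap. The other Muc5ac probe differed by -0.34 (adjusted p = 0.24), and its log2 ratios did not overlap. Of the 4 tested probes of that list 1 read higher, and the median difference was -0.28. Among the epithelial markers, 1 of 10 probes fell, a probe of Dsg3, a desmosomal cadherin (-2.85, adjusted p = 0.026), whose other probe read -0.03. The part of other cell types in the members' differences was not tested.

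Promoter sequence was available for 8 of the 10 genes, in RefSeq annotation of GRCm38.p6. The 250 bases before the start site of each were searched for the core of the antioxidant response element, TGACNNNGC, the site through which NRF2 acts on many detoxification genes. Both strands were searched. Of the 9 promoter windows of these 8 genes, those of Gsta3 and Gstm5 held a match (22.2%), and 10.2% of 32851 RefSeq promoter windows of that length did. Ephx2 and Gsta4 had no entry. A match is a description of letters and shows no binding. The match begins at position -121 from the start site in Gsta3 and at -42 in Gstm5, and is in capitals.
Gsta3 (chr1:21240335-21240584, plus strand): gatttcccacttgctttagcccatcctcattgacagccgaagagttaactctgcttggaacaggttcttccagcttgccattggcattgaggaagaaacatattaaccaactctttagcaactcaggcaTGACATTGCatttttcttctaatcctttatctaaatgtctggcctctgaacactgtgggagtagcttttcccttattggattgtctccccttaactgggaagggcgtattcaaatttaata
Gstm5 (chr3:107895604-107895853, plus strand): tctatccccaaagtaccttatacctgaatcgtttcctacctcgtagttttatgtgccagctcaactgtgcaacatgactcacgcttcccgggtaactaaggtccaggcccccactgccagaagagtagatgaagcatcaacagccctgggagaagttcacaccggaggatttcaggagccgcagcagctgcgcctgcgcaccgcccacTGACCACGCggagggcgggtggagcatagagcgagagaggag

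Genes that work around the members were read from 5 lists. In all, 3 of 80 tested probes were called higher and 3 lower (7.5%, where 4.18% of all tested probes were called), with a median of 0.16. With a replicate block 10 were called, 3 higher and 7 lower. Of the other glutathione transferases, Gstm4 alone rose (4.55% of the probes called), 0 fell and 21 probes did not pass. The median difference was 0.19. The block added 2 lower calls in that list. They were Gstt2, a theta-class transferase (-1.01, adjusted p = 0.061 without the block and 0.048 with it), and Hpgds, a prostaglandin D synthase of the sigma class (0.068 and 0.033), which was not well above background on any knockout-labelled array. None of the 3 probes of other epoxide hydrolases passed. The smallest p there was that of Ephx4 (0.44, SE 0.40, adjusted p = 0.54), which read -0.22 with the deposited log ratio.

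Glutathione supply and breakdown held 2 called probes of 19 (10.5%, where 4.18% of all tested probes were called). Both were lower, and the median difference of the list was 0.09. Chac1, a cyclotransferase that breaks down glutathione inside the cell, fell by 1.98 (SE 0.21, adjusted p = 0.0092). Its ratios were 1.56, 1.60 and 1.16 on the wild-type-labelled arrays, against -0.41, -0.34 and -0.88 on the knockout-labelled arrays, so all arrays of a group were close together. Ggct, another cyclotransferase of gamma-glutamyl compounds, fell by 1.69 (SE 0.26, adjusted p = 0.023) on 1 probe and read 0.09 (adjusted p = 0.81) on its other, so its probes disagree. With the replicate block a probe of Slc7a11, the cystine carrier, was also called lower (-1.19, adjusted p = 0.11 without the block and 0.019 with it). Its other tested probes, at -0.80 and -0.29, were not. The enzymes of glutathione synthesis did not pass, with Gclc at 0.16, Gss at 0.25 and Gclm at 0.72 and 0.19.

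In the list of conjugate export and mercapturate processing, 1 of 25 probes was called. That is 4%, near the 4.18% of all tested probes, and the median difference was 0.05. Ggt1, which cleaves glutathione and its conjugates at the cell surface, fell by 1.64 (SE 0.26, adjusted p = 0.025). Its Cy5 signals were low, at 151, 293 and 314 against 47.4, 84.9 and 43.8, and did not overlap. With median centring Ggt1 read -1.25 (adjusted p = 0.078) and Ggct -1.51 (adjusted p = 0.083), and over single leave-outs their adjusted p reached 0.12 and 0.10. That of Chac1 reached 0.055. With the replicate block Dpep2, a dipeptidase, was also called lower (-0.73, adjusted p = 0.068 without the block and 0.046 with it). The export pumps Abcc1, Abcc3, Abcc4 and Abcc5 did not pass on any tested probe.

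Among cytochromes P450 that make epoxides and their reductase, Cyp2c65 and Cyp2c29 rose and none fell. Of the 11 tested probes 9 did not pass, so 18.2% were called, where 4.18% of all tested probes were. The median difference was 0.67. Cyp2c65 rose by 3.99 (SE 0.28, adjusted p = 0.0029), with ratios of 2.76, 2.31 and 2.52 against 6.13, 7.11 and 6.30. It passed in every leave-out, at adjusted p up to 0.026. Cyp2c29 rose by 1.13 (SE 0.16, adjusted p = 0.02). It was dim, with Cy5 signals of 27.8 to 76.5 against 170.6 to 252.2, and with the deposited log ratio its adjusted p was 0.052. With median centring Cyp2c29 read 0.68 (adjusted p = 0.20), and over single leave-outs its adjusted p reached 0.081. Whether these probes also bind transcripts of close Cyp2c relatives was not tested. Cyp2j9, of a family that acts on arachidonic acid, differed by 1.48 (SE 0.40, adjusted p = 0.083) and the reductase Por by -0.06.

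**Figure D5:**
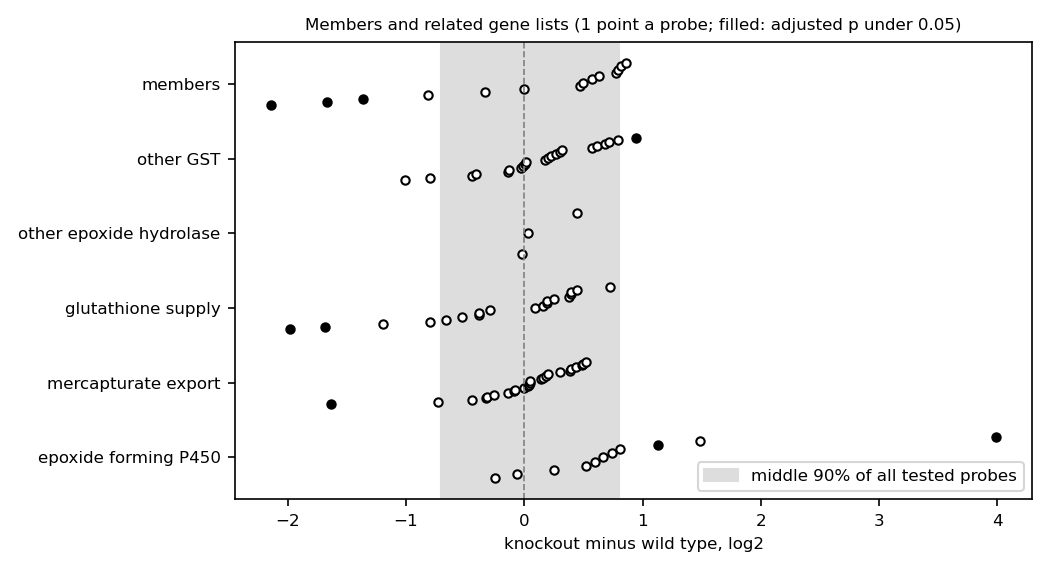
Difference of the knockout-labelled arrays minus the wild-type-labelled arrays (log2) for each tested probe of the members and of the 5 related lists, 1 point a probe, filled where the adjusted p was under 0.05. The grey band runs from -0.70 to 0.80, the 0.05 and 0.95 quantiles of all tested probes. The called members lie left of the band, and Cyp2c65 lies far to its right.

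Other probes followed the called members closely over the 6 arrays, as Pearson correlations of log2 ratios that describe these arrays only. The most like Ephx2 were Btd, Luc7l and Akap13 (r of 0.997, 0.996 and 0.996). For Gstm5 they were Fbxl16, Ppm1h and Drd5 (r of 0.999 each), and for Gsta3 they were Sox1, Snx10 and Masp1 (r of 0.997, 0.996 and 0.995). With 6 arrays in 2 groups on 2 slides, the points share group, slide and reference. These probes were picked as the highest of all tested probes, so high correlations follow from the choice. The size of the difference need not be alike. Beside Gsta3, Masp1 differed by -1.32 (adjusted p = 0.041) but Sox1 by only -0.17 (adjusted p = 0.47).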

How the data were processed

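Scanner files deposited by the authors give intensity per spot in each channel and, as LogRatio, the log10 of red over green. Their software was Agilent Feature Extraction 10.7.3.1 and the array design 014868, per the file headers (version 9.1 per the submitters' processing notes). The deposited series matrix holds log2 values, which correlated at -0.993 to -0.996 with the scanner log2 ratio, so their sign was turned. Their centring stays unknown. Arrays held 45018 spots each.

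Intensities were corrected with normexp (offset 50) and loess within arrays, control spots at weight 0. Outlier spots marked by the scanner software, 55 to 164 an array, were dropped and spots of a probe averaged. No spot was saturated in Cy5. Testing required the Cy5 signal of a probe to exceed background clearly, by the scanner software, on every one of the 3 arrays in at least 1 group. Group differences came from limma 3.58.1 (R 4.3.3, two-sided, Benjamini-Hochberg over 30505 probes, threshold 0.05). Adjusted p-values in the text are from it. The smallest exact permutation p for 3 against 3 arrays is 0.1. The number of arrays limits the precision. The labels call the samples biological replicates, with no animal named, so the p-values cover only differences among these RNA samples, which may be technical. RefSeq names (GRCm38.p6) were matched for 26918 probes by accession 5082 by symbol and 817 by synonym, and 8357 kept the file's name; members were taken by the file's name. Positions of probes (mm9) come from the scanner files. Deviations from group means correlated at 0.17, 0.51 and 0.34 for arrays of the same replicate number. Wild type replicate 1 correlated nearly as well, at 0.16, with knockout replicate 3, and wild type replicate 3 at 0.1 with knockout replicate 1. Whether the numbers pair the arrays is thus not settled, and arrays of the same number also share a position on the slide. The fit on Cy3 alone was added after seeing the data. Members and lists were chosen with earlier results of these data known. Named were all member probes, in each list the called genes or else the smallest p, Pax9, and the 3 genes most like each called member; other genes named were chosen after their values were seen. In data simulated for this comparison over 30505 probes, 26% of 100 changes of log2 size 1 and 77% of 100 of size 2 were recovered, with 5 false calls. The simulated noise was independent between probes and held no slide or replicate effect, and far fewer probes were changed than were called here. These figures therefore do not gauge recovery or false calls in the arrays themselves.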

Additional observations from a re-analysis of the deposited data

How the results depend on the processing

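All 14 members' calls and signs were followed through 16 alternatives. Signs turned only for Ephx1, which never passed: from the deposited values (log ratio or matrix) probe 1 read 0.0041 and probe 2 read 0.0261. Probe 1 read 0.33 with median centring and -0.094 to 0.0978 over the leave-outs of 1 array, above 0 without wild type replicate 3 or knockout replicate 3. Ephx2, Gstm5 and Gsta3 stayed lower in each. Median centring in place of loess left 1 member probe called, 2 list probes and 139 probes in all. Cy5 alone called 6 members (3 higher), 24 list probes and 8267 probes. Array weights called 6 members (2 higher), 11 list probes and 3311 probes. A replicate block called 4 members, all lower, 10 list probes and 2254 probes, and changed no member's call except that of probe 2 of Gsta3. Over all probes, 727 passed with the deposited log ratio, 714 with the matrix values and 699 among probes well above background on all 6 arrays. The matrix and the log ratio are nearly the same values, and Aquantile leaves ratios as they are, so these are no separate checks. Leaving out 1 array gave 0 to 4 member calls (0 without wild type replicate 1 or knockout replicate 3), 1 to 8 list calls and 38 to 1111 calls in all, so the counts rest on single arrays.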
